A study of Mus musculus with 6 samples.

Results

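Annexins and S100 proteins, calcium-binding proteins that work at cellular membranes, were examined in bone marrow-derived macrophages (BMDMs) with and without the tyrosine kinase PYK2. The 10 genes were Anxa1, Anxa2, Anxa3, Anxa4, Anxa5, Anxa11, S100a4, S100a6, S100a10 and S100a11, taken by their symbols from a table of 55291 genes. They comprised 6 annexins and 4 S100 genes, and 9 of the 10 had enough counts to be tested. BMDMs are primary macrophages grown from marrow, here for 7 days in medium with 20% L929-conditioned medium as the source of M-CSF, which was refreshed on day 3. RNA was sequenced from 3 WT mice and 3 PYK2 KO mice, 1 library per mouse, by a bulk form of MARS-seq that reads the 3′ ends of polyadenylated transcripts. The knockout was carried by the whole animal rather than by macrophages alone, both genotypes were labelled C57BL/6, and the labels name no treatment of the cells beyond the culture medium. Age and sex were not given for these mice in the sources used here.

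Annexins bind acidic phospholipids such as phosphatidylserine when calcium rises, and they take part in membrane repair, exocytosis, and the clearance of dying cells. S100 proteins are small EF-hand proteins that usually form dimers, open a binding surface on taking up calcium, and dock onto partners that include annexins. S100A10 joins annexin A2 in a complex that binds plasminogen at the cell surface, and S100A11 can pair with annexin A1. PYK2, encoded by Ptk2b, is a relative of FAK that responds to calcium and to integrins, so the comparison asks whether transcripts of this calcium-binding group differed when the kinase was missing.

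The libraries held between 2857097 and 3917207 counts, and the ranges of WT and PYK2 KO overlapped. Ptk2b averaged 195 ± 5.63 CPM, or counts scaled by TMM library size, in WT against 21.8 ± 1.14 CPM in PYK2 KO (SD, n = 3 each), which was 11.2% of the WT level, and it was low in each library labelled PYK2 KO. All 8 macrophage markers passed the filter on low counts, with summed levels of 29147 to 29897 CPM in WT and 30334 to 31331 CPM in PYK2 KO libraries. Most of each sum was Lyz2, at 23536.1 to 24430.5 CPM in WT and 24815.1 to 25925.4 CPM in PYK2 KO libraries. Of the 8 markers, 4 had fold changes above 0 and 4 below, and 0 had an unadjusted p under 0.05 (edgeR). Of 8 fibroblast and stromal markers none passed, their sum reached at most 1.53 CPM in any library, and Col3a1, Dcn, Lum and Pdgfra were at 0. Dendritic cell and T cell markers summed to at most 1.02 and 0.56 CPM in any library, the 5 erythroid markers were at 0, and of the B cell markers Cd79b alone was detected. Markers of neutrophils, 9 in number, summed to 201 to 251 CPM in WT and 223 to 359 CPM in PYK2 KO libraries, and the values that touch a result are given beside it.

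No member differed between genotypes past the threshold. In edgeR's quasi-likelihood test over 9815 genes, 0 of the 9 tested members had a Benjamini-Hochberg adjusted p under 0.05, where 25 genes, or 0.255% of those tested, did. At an unadjusted p under 0.05, 3 members were higher in PYK2 KO BMDMs (Anxa1, S100a4 and S100a6), against 3.40% of all tested genes, and 0 were lower, against 2.63%. The likelihood ratio test, the exact test and limma voom also adjusted no member below 0.05 and gave 3 members at the unadjusted level, and DESeq2 gave 2 (S100a4 and S100a6). For S100a4 and S100a6 every PYK2 KO value lay above every WT value, which held for 2 of the 9 members and for 5.17% of all tested genes. The median log2 fold change of the members was 0.13 (8 above 0 and 1 below), beside a median of 0.0019 over all genes, of which 50.5% were above 0. Without PYK2 KO library 4 the members' median was 0.05. In bulk RNA, more cells that carry a transcript and more of it per cell cannot be told apart.

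**Figure D1:**
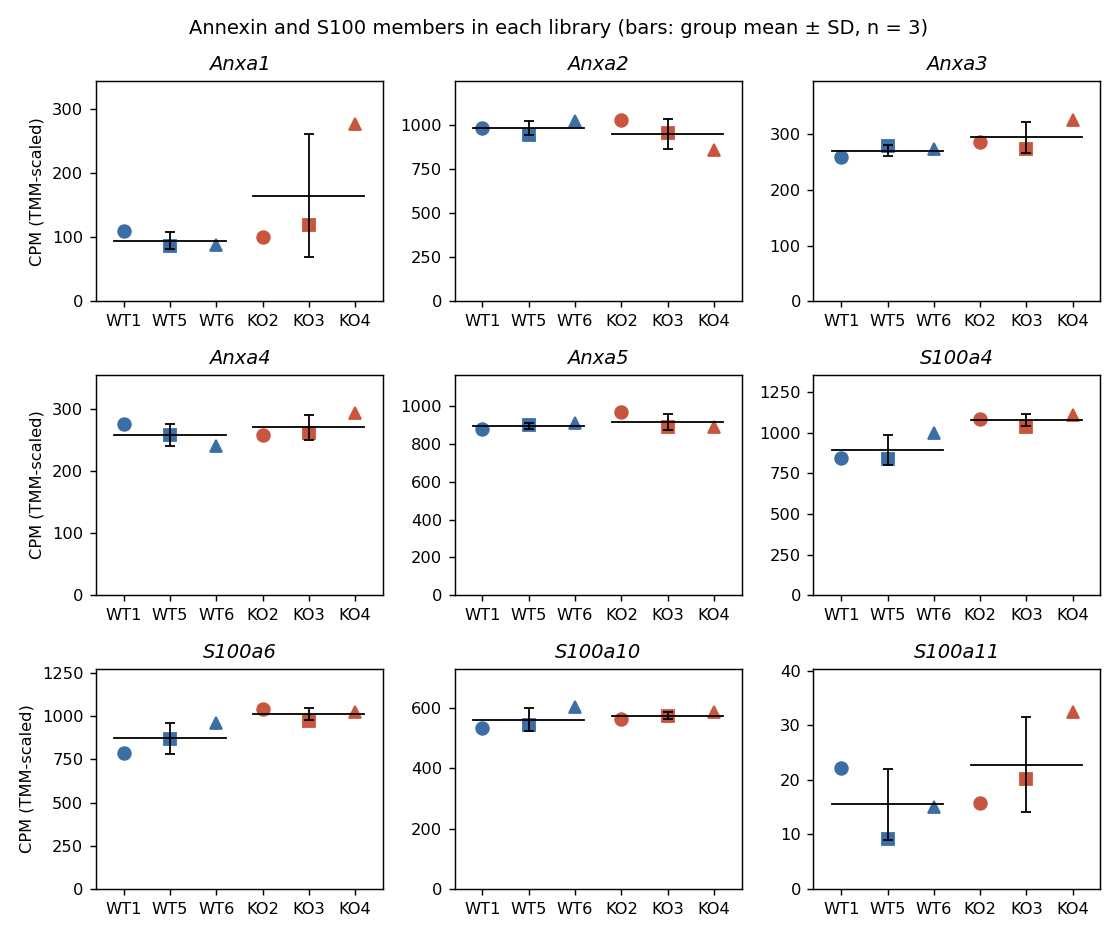
Each panel plots the level of one tested member in CPM (linear axis from 0) in the 3 WT libraries (blue) and the 3 PYK2 KO libraries (red), with the marker shape telling libraries of a genotype apart. Horizontal lines and error bars give the group mean ± SD. S100a4 and S100a6 are the panels in which the genotypes do not overlap, and Anxa1 shows the PYK2 KO library 4 far above the other 5.

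S100a4 and S100a6 were the members with the steadiest difference. S100A4 binds the heavy chain of non-muscle myosin IIA and is known from cell motility, and S100A6, or calcyclin, binds CACYBP and annexin A11. The genes lie close together within the S100 cluster of chromosome 3 (GENCODE M21, GRCm38), S100a4 from 90603771 to 90606045 and S100a6 from 90612882 to 90624181, both on the plus strand and with starts 9.11 kb apart, with S100a5 between them at 0 counts in every library. S100a4 was at 846, 838 and 1001 CPM in the WT libraries 1, 5 and 6, and at 1084, 1037 and 1112 CPM in the PYK2 KO libraries 2, 3 and 4. The lowest PYK2 KO library therefore stood just above WT library 6, which was itself well above the other WT libraries. The means were 895 ± 91.9 CPM in WT against 1078 ± 38.0 CPM in PYK2 KO (SD, n = 3 mice each), which is a log2 fold change of 0.27 (standard error 0.08, 95% interval 0.09 to 0.45, unadjusted p = 0.00588 and adjusted p = 0.537 from edgeR with Benjamini-Hochberg adjustment). With each library left out in turn the change stayed between 0.22 and 0.36 and the unadjusted p between 0.000591 and 0.0384 in the edgeR fits.

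S100a6 followed the same course, at 785, 867 and 962 CPM in WT libraries 1, 5 and 6 and at 1043, 971 and 1023 CPM in PYK2 KO libraries 2, 3 and 4. WT library 6 was again the highest of its genotype, and PYK2 KO library 3, the lowest of its own, exceeded it by a small margin. On average S100a6 stood at 871 ± 88.7 CPM in WT against 1012 ± 36.9 CPM in PYK2 KO (SD, n = 3 mice each). This was a log2 fold change of 0.22 (standard error 0.09, 95% interval 0.04 to 0.40, unadjusted p = 0.0217, adjusted p = 0.702, edgeR with Benjamini-Hochberg adjustment). Its unadjusted p rose above 0.05 when a single library was dropped in 3 cases (0.0957 for WT 1, 0.0568 for WT 5 and 0.0629 for PYK2 KO 2, edgeR), with changes from 0.15 to 0.29 over the 6 such fits. For either gene the two-sided exact permutation test gave p = 0.1, the smallest that 3 against 3 mice allow. The number of S100a4 counts per S100a6 count, a ratio within a library that no scaling can move, was 1.08, 0.966 and 1.04 in WT and 1.04, 1.07 and 1.09 in PYK2 KO libraries. The genotypes overlapped in that ratio. The annotated gene Gm42674 overlaps S100a4 on the same strand and matches its transcript end over 268 bases at 100% identity, but it held 0 counts.

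Genes known from less mature myeloid cells were set beside S100a4 and S100a6 as a description only. A list of 13 genes known from classical monocytes and myeloid precursors, put together after the values of some of them were seen, summed to 185, 175 and 185 CPM in WT and 251, 276 and 281 CPM in PYK2 KO libraries. Without F13a1, its highest gene, the sums were 76.1, 70.8 and 77.8 CPM in WT and 90.2, 109 and 109 CPM in PYK2 KO libraries. Neither sum overlapped between genotypes, but a list chosen with some values seen cannot test a difference. Of the 13, 7 were tested, and all 7 had changes above 0 (median 0.64), where 50.5% of all tested genes did. F13a1, the coagulation factor XIII A chain of monocytes and macrophages, passed the threshold (log2 fold change 0.64, adjusted p = 0.000647, edgeR with Benjamini-Hochberg adjustment). Ly6c2, Hp and Prtn3 were also higher at an unadjusted p under 0.05 (edgeR), while the other 3 were not. This made 4 of the 7, beside 3.40% of all tested genes. The choice of genes with some values seen keeps that count from being a test. The other 6 did not pass the filter, among them the monocyte receptor gene Ccr2, with 12, 7 and 4 counts in WT and 3, 6 and 1 in PYK2 KO libraries. The part of such transcripts in the S100a4 and S100a6 values was not tested.

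The other S100 members, S100a10 and S100a11, overlapped between genotypes. S100A10 is unusual in the family because its EF hands no longer bind calcium, so its complex with annexin A2 does not depend on a calcium signal to S100A10. S100a10 (chromosome 3, 93555080 to 93564643) was at 535, 543 and 604 CPM in WT and 563, 574 and 585 CPM in PYK2 KO libraries. The 3 PYK2 KO values all fell inside the WT range, and the log2 fold change was 0.03 (standard error 0.08, 95% interval -0.14 to 0.20, adjusted p = 0.993 from edgeR with Benjamini-Hochberg adjustment). S100a11, whose protein pairs with annexin A1, starts 34.6 kb before S100a10 (93520488 to 93526287) and had few counts, namely 87, 33 and 43 in WT and 49, 58 and 109 in PYK2 KO libraries. Scaled, these were 22.2, 9.24 and 15.1 CPM and 15.7, 20.1 and 32.5 CPM. WT library 1 and PYK2 KO library 4 were the highest of their genotypes, the ranges overlapped, and the log2 fold change of 0.55 (standard error 0.28, 95% interval -0.05 to 1.15, adjusted p = 0.873 from edgeR with Benjamini-Hochberg adjustment) ran from 0.19 without PYK2 KO library 4 to 0.94 without WT library 1. Its counts are uncertain for a further reason. The processed pseudogenes Gm12854 and Gm7665 match the last 300 bases of its transcript over 160 bases at 98.1% and 97.5% identity, they held 27 and 5 counts over the 6 libraries, and how reads that fit several places were counted is not given in the sources used here.

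Of the annexins, Anxa1 had the largest fold change and it rested on 1 mouse. Annexin A1 is induced by glucocorticoids and acts on formyl peptide receptors to damp inflammation. Anxa1 (chromosome 19, 20373428 to 20390944, minus strand) had 430, 309 and 250 counts in WT libraries 1, 5 and 6 and 312, 344 and 927 counts in PYK2 KO libraries 2, 3 and 4. After scaling these were 109.8, 86.5 and 87.6 CPM, and 100.1, 119 and 276 CPM. PYK2 KO library 4 thus stood far above every other library, and PYK2 KO library 2 lay within the WT range. The means of 94.6 ± 13.1 CPM in WT against 165 ± 96.7 CPM in PYK2 KO (SD, n = 3 mice each) gave a log2 fold change of 0.81 (standard error 0.26, 95% interval 0.25 to 1.36, unadjusted p = 0.00735, adjusted p = 0.555, edgeR with Benjamini-Hochberg adjustment; exact permutation p = 0.2). Without PYK2 KO library 4 the fold change was 0.20, with an unadjusted p of 0.115 from edgeR. The gene passed the threshold in 2 alternative fits, one without a filter on low counts (adjusted p = 6.61e-14) and one with a covariate for the leading component of residual variation (adjusted p = 0.0345), both from edgeR with Benjamini-Hochberg adjustment.

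Some neutrophil-associated transcripts were also highest in library 4 of the PYK2 KO group, and others were not. S100a9, which with S100a8 forms calprotectin, an abundant protein of neutrophils and fresh monocytes, was at 70.7, 30.0 and 34.0 CPM in WT and 50.7, 93.2 and 103 CPM in PYK2 KO libraries, and S100a8 was at 35.5, 26.6 and 36.1 CPM and 21.5, 40.9 and 42.3 CPM. The 9 neutrophil markers, of which Mmp8 was the highest, summed to 251, 201 and 245 CPM in WT and 223, 305 and 359 CPM in PYK2 KO libraries. The sum rested on Mmp8, which alone was at 272 CPM in PYK2 KO library 4. Without it the other 8 summed to 76.4, 73.1 and 77.5 CPM in WT and 63.2, 99.1 and 86.4 CPM in PYK2 KO libraries, with library 3 above library 4. Only 2 of the 9 markers, Mmp8 and Mpo, were highest in PYK2 KO library 4, and 4 were highest in PYK2 KO library 3. Of the 9, 5 passed the filter, 0 passed the threshold, and Mmp8 and Mpo were higher at an unadjusted p under 0.05 (edgeR), against 3.40% of all tested genes. Among the 5 tested, 3 changes were above 0 and 2 below (Ltf at -0.09 and Camp at -0.26). Ngp, Elane, Retnlg, Cxcr2 and Ly6g made up the rest of the list, and no marker on it was at 0 in all libraries. Whether such transcripts have a part in the Anxa1 value of library 4 was not tested. The formyl peptide receptor genes Fpr1 and Fpr2, through which annexin A1 acts, did not pass the filter. Fpr1 had 6, 4 and 5 counts in WT and 11, 11 and 10 in PYK2 KO libraries, and Fpr2 had 4, 3 and 3, and 4, 6 and 9 counts, values that were singled out after they were seen and were not tested.

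**Figure D2:**
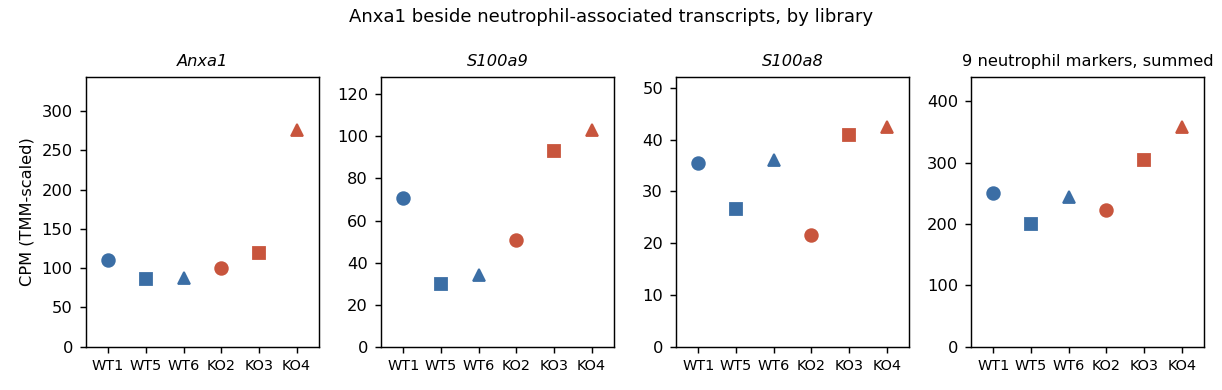
Levels in CPM (linear axes from 0) of Anxa1, S100a9, S100a8 and the sum of 9 neutrophil markers in the 3 WT (blue) and 3 PYK2 KO (red) libraries. PYK2 KO library 4 is the highest in all 4 panels, at 276, 103, 42.3 and 359 CPM.

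Anxa2 and Anxa5 showed no detectable difference. Annexin A2 (gene on chromosome 9, 69453620 to 69491795, plus strand) links actin to membranes and carries S100A10, and annexin A5 (chromosome 3, 36448923 to 36475894, minus strand) is the phosphatidylserine binder used to stain apoptotic cells. Anxa2 was at 981, 942 and 1024 CPM in WT and 1028, 953 and 858 CPM in PYK2 KO libraries, with its lowest value in PYK2 KO library 4. Its log2 fold change was -0.05 (standard error 0.08, 95% interval -0.23 to 0.12, adjusted p = 0.972 from edgeR with Benjamini-Hochberg adjustment), and it was 0.01 without that library. Anxa5 was at 880.3, 899 and 909.6 CPM in WT and 968, 893 and 891 CPM in PYK2 KO libraries. The interval of its log2 fold change of 0.03 ran from -0.13 to 0.19 (adjusted p = 0.991, edgeR with Benjamini-Hochberg adjustment), and without PYK2 KO library 2 the change was -0.0077. For the annexin A2 complex, the counts of S100a10 per count of Anxa2 were 0.545, 0.576 and 0.59 in WT and 0.547, 0.602 and 0.682 in PYK2 KO libraries, which overlapped.

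Anxa3 and Anxa4, both of which encode phospholipid-binding annexins, had small changes. Anxa3 (chromosome 5, 96793339 to 96845966, plus strand) was at 259, 279 and 273 CPM in WT and 286, 273 and 326 CPM in PYK2 KO libraries, a log2 fold change of 0.13 (standard error 0.09, 95% interval -0.06 to 0.31, adjusted p = 0.927 from edgeR with Benjamini-Hochberg adjustment). Anxa4 (chromosome 6, 86736840 to 86793584, minus strand) was at 277, 259 and 241 CPM in WT and 258, 261 and 294 CPM in PYK2 KO libraries, with a change of 0.06 (95% interval -0.12 to 0.25, adjusted p = 0.965, edgeR with Benjamini-Hochberg adjustment). In both, PYK2 KO library 4 was the highest of the 6 and the genotypes overlapped. Without it the changes were 0.05 for Anxa3 and 0.00069 for Anxa4.

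Anxa11 was close to absent from the table. Annexin A11, which binds RNA granules and ALG-2, is encoded on chromosome 14 from 25842156 to 25886804 on the plus strand. Ptk2b is on the same chromosome, with the gene spans beginning 40311 kb apart. It had 1 count in WT library 1, 1 count in PYK2 KO library 4 and 0 in the other 4 libraries, so it did not pass the filter and no fold change was computed. A count of 0 allows up to 3 counts, which is 0.766 to 1.05 CPM in these libraries, for counting error alone. The antisense gene Anxa11os, which overlaps it, also had 0 counts, and the search for near-identical transcript ends found no copy of Anxa11. Why so few reads were assigned to it was not tested, and the counts do not show that the gene was silent.

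**Figure D3:**
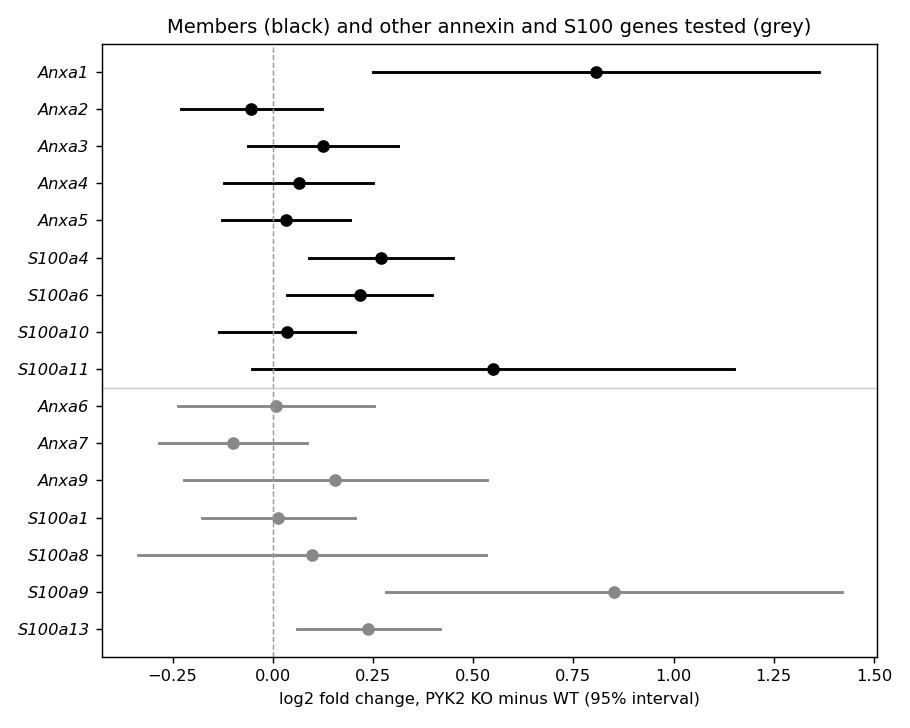
Points give the log2 fold change of PYK2 KO minus WT and lines its unadjusted 95% interval from edgeR's quasi-likelihood fit, for the 9 tested members (black) and the 7 other annexin and S100 genes tested (grey). The intervals of Anxa1, S100a4, S100a6, S100a9 and S100a13 lie above 0, and none of the 16 genes had an adjusted p under 0.05.

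The promoters of 5 members are shown because they stand for the patterns above: the neighbouring pair S100a4 and S100a6 with separated genotypes, Anxa1 and S100a11 with the largest fold changes, and Anxa2 with no detectable change. RefSeq promoter windows of GRCm38, from 250 bases before the start to 50 bases after it, were found for 8 of the 10 members, and Anxa3 and S100a10 had no entry. The 150 bases before each RefSeq start are printed 5′ to 3′ on the strand of the gene. Capitals mark matches to a TATA box (TATAAA), an AP-1 site (TGANTCA) or a GC box (GGGCGG) on either strand. The printed stretches are chr3:90603620-90603769 (plus) for S100a4, chr3:90612744-90612893 (plus) for S100a6, chr19:20390672-20390821 (minus) for Anxa1, chr3:93520346-93520495 (plus) for S100a11 and chr9:69453533-69453682 (plus) for Anxa2. By the GENCODE spans given above, the printed bases of Anxa1 lie inside the gene. Those of S100a6, S100a11 and Anxa2 end inside their genes, and those of S100a4 end before its gene.
S100a4: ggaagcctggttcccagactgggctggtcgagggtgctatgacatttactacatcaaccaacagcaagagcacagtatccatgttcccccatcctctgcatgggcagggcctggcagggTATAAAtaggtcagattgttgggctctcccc
S100a6: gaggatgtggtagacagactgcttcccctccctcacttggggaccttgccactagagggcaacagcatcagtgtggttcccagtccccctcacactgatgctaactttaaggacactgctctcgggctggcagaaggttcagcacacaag
Anxa1: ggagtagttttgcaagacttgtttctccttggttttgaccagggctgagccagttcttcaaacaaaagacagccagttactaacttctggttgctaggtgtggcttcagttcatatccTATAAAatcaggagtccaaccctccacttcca
S100a11: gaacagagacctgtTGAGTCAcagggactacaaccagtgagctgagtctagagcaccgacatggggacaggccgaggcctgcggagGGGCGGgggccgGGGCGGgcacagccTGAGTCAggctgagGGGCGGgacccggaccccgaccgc
Anxa2: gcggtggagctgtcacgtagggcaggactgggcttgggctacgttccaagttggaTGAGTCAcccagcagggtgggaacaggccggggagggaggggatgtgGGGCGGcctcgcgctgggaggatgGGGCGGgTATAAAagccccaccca
S100a4 and Anxa1 each held 1 TATA box, beginning 31 and 32 bases before the RefSeq start, while S100a6 held none of the 3 motifs in its whole window. S100a11 held 2 AP-1 sites and 3 GC boxes, and Anxa2 held 1 TATA box, 1 AP-1 site and 3 GC boxes, 1 of which lies before the printed bases. Among all 32851 windows, 13.6% held a TATA box, 7.81% an AP-1 site and 35.7% a GC box, and no match in the member windows overlapped one of another motif. The pair that shared a course over the libraries thus did not share these motifs, and a match is a run of letters rather than a site shown to be used.

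Among themselves the 9 tested members did not move as one. Over the 6 libraries, the 36 pairwise Pearson correlations of log2 CPM ran from -0.84 (Anxa1 with Anxa2) to 0.94 (S100a4 with S100a6), with a median of 0.32, and 24 were above 0. These describe 6 libraries that share genotype and depth differences, and no test was made. Anxa1 had its closest courses with Anxa4 (0.84), S100a11 (0.84) and Anxa3 (0.83), all of which were highest in PYK2 KO library 4. That library held the highest value of 5 of the 9 members and the lowest of 1, PYK2 KO library 2 held the highest of 3, and WT libraries 1 and 5 held the lowest of 4 and 3. Together the 10 members took 0.463% to 0.511% of all counts in WT and 0.51% to 0.547% in PYK2 KO libraries.

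**Figure D4:**
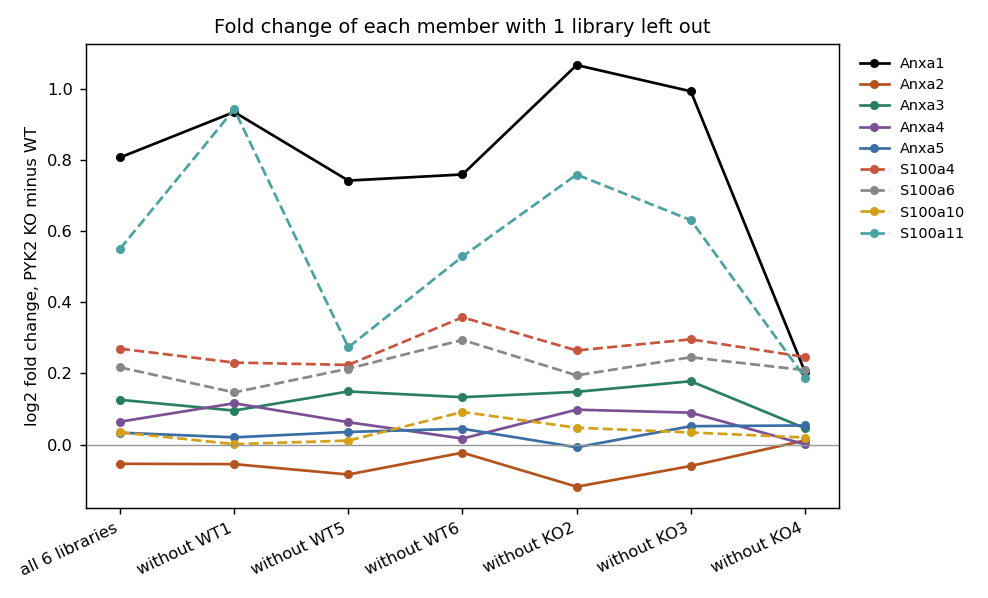
Lines connect the log2 fold change (PYK2 KO minus WT) of each tested member with all 6 libraries and with each library left out in turn, annexins solid and S100 members dashed. Anxa1 runs from 1.07 without PYK2 KO library 2 to 0.20 without PYK2 KO library 4, while S100a4 stays between 0.22 and 0.36.

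The rest of the annexin and S100 families gave a similar picture. Of 6 other annexin genes, Anxa6, Anxa7 and Anxa9 passed the filter, with log2 fold changes of 0.0082, -0.10 and 0.16, and Anxa8, Anxa10 and Anxa13 were at 0 in every library. With a library left out, Anxa6 ran from -0.076 to 0.14, Anxa7 from -0.17 (without WT library 6) to -0.041 (without WT library 5), and Anxa9 from 0.068 (without WT library 5) to 0.23 (without WT library 1). Of 12 other S100 genes, 4 passed the filter and 0 passed the threshold. S100a13, whose protein assists the unconventional secretion of growth factors, was at 123, 129 and 118 CPM in WT and 144, 138 and 155 CPM in PYK2 KO libraries. Its genotypes did not overlap, and its change was 0.24 (95% interval 0.06 to 0.42, unadjusted p = 0.0119, adjusted p = 0.611, edgeR with Benjamini-Hochberg adjustment), with an unadjusted p of 0.0509 without PYK2 KO library 4. S100a9 had a change of 0.85 (95% interval 0.28 to 1.42, adjusted p = 0.537, edgeR with Benjamini-Hochberg adjustment), and it passed without WT library 1, at 1.37 (adjusted p = 0.0173 in the same edgeR test). In the 5 other fits with a library left out S100a9 did not pass, with changes from 0.62 (without WT library 5) to 1.10 (without PYK2 KO library 2) and edgeR adjusted p from 0.0962 to 1.00. S100a1 and S100a8 had changes of 0.01 and 0.10, with intervals from -0.18 to 0.20 and from -0.34 to 0.53. Taking members and other genes of the family together, all 8 tested S100 genes had a fold change above 0, with a median of 0.23, and 4 of them had an unadjusted p under 0.05, while the 8 tested annexins had a median of 0.05 with 6 above 0 and 1 at an unadjusted p under 0.05. The shared direction of the S100 genes did not hold in every fit with a library left out, since S100a8 was below 0 in 3 of these (lowest at -0.076, without PYK2 KO library 4) and S100a1 in 1 (-0.062, without WT library 6). Nor did all 4 keep an unadjusted p under 0.05 in each fit, since S100a6 and S100a13 lost it with a library left out, as given above, and S100a9 was at 0.0804 in DESeq2. Over all tested genes 50.5% were above 0, 3.40% were higher and 2.63% lower at an unadjusted p under 0.05, and the difference between the S100 and annexin genes was not tested. S100a9 lies in the same chromosome 3 cluster (90692632 to 90695721), as do S100a1 and S100a13, whose starts face away from each other around 90514392.

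Partners of these proteins were followed in 3 further lists. Of 19 genes of membrane repair and of direct annexin or S100 partners, 17 were tested, 0 passed the threshold and the median log2 fold change was -0.0049. Myh9, the myosin heavy chain that S100A4 binds, averaged 267 ± 6.03 CPM in WT against 265 ± 12.1 CPM in PYK2 KO (SD, n = 3 mice each), and Cacybp, the S100A6 partner, was at 97.3 ± 4.63 and 97.5 ± 8.28 CPM. Ahnak, a giant scaffold protein that binds annexin A2 with S100A10, was at 427 ± 70.2 and 438 ± 4.95 CPM. In this list Arf6, a small GTPase of membrane traffic, had the smallest p, with a change of -0.17 (95% interval -0.33 to -0.0019, unadjusted p = 0.0477, adjusted p = 0.823, edgeR with Benjamini-Hochberg adjustment). It was the 1 of 17 lower at an unadjusted p under 0.05, against 2.63% of all tested genes. Every PYK2 KO value of Arf6 lay below every WT value, which also held for 498 of all 9815 tested genes. The membrane repair genes Dysf and Trim72 were at 0 counts. Of 10 receptor and cell surface plasminogen genes, 5 were tested, and their changes ran from -0.07 to 0.35 with 0 past the threshold. Plaur, the urokinase receptor, averaged 82.4 ± 11.1 CPM in WT against 83.0 ± 13.4 CPM in PYK2 KO (SD, n = 3 mice each).

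Other EF-hand proteins gave no gene past the threshold either. Of 23 such genes 22 were tested, 0 passed the threshold or had an unadjusted p under 0.05 (edgeR), and 11 were above and 11 below 0, with changes between -0.16 and 0.18 and a median of -0.01. Lcp1, which encodes the actin bundler L-plastin, averaged 687 ± 30.4 CPM in WT against 687 ± 76.4 CPM in PYK2 KO (SD, n = 3 mice each).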

How the data were processed

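The authors made libraries with a bulk adaptation of MARS-seq, processed the reads in the UTAP pipeline, and deposited raw counts per gene, which are whole numbers. The submitters' processing notes name cutadapt, STAR and mm10 without versions. Whether molecular identifiers were collapsed or strand was used is not given in the sources used here, so limits cover counting error only. Columns were matched to mice by name, and 0 columns belonged to other samples. No libraries of a genotype were duplicates (chi-square per degree of freedom at least 2.15).

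Genotypes were compared by the quasi-likelihood test of edgeR 4.0.16 (R 4.3.3) after filterByExpr and TMM scaling, with genotype as the sole term. Adjustment was by Benjamini-Hochberg over all 9815 genes, at a threshold of 0.05. Standard errors and 95% intervals were derived from each fold change and its F value. Untested genes were scaled with the same factors, and correlations used log2 CPM with 0.5 added. Exact permutation tests used scipy 1.17.1, and the last 300 bases of transcripts were searched with blastn 2.17.0 at 95% identity over at least 100 bases. Alternatives were DESeq2 1.42.0, limma 3.58.1, other tests, scalings and filters, a residual principal component, and leaving out each library.

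Members and lists were chosen with earlier results of these data known. The named genes were the members, Ptk2b, every other annexin and S100 gene tested, and the partner genes past the threshold or, per list, with the 2 smallest unadjusted p-values under 0.05, which left Arf6. Genes beyond that rule (Myh9, Cacybp, Ahnak, Plaur, Lcp1, Dysf, Trim72, Fpr1 and Fpr2, the markers beside Anxa1, and the monocyte and precursor list) were added for their roles after their values were seen. Positions came from GENCODE M21 and promoters from RefSeq, both GRCm38.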

Additional observations from a re-analysis of the deposited data

How the results depend on the processing

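No paired analysis was possible because no number is shared between WT (1, 5, 6) and PYK2 KO (2, 3, 4). Without a filter on low counts, 159 genes passed the threshold, among them 1 member (Anxa1) and 1 other S100 gene (S100a9). With a covariate for the leading component of residual variation 62 genes passed, again with 1 member (Anxa1) and 1 other S100 gene (S100a9). The likelihood ratio test gave 45 genes and the exact test 43, against 25, and no member, other family gene or partner passed in either. With a library left out, 14 to 34 genes passed, the fewest without PYK2 KO 4 and 15 when WT 5 or PYK2 KO 2 was dropped. In those fits 0 members and 0 to 1 other annexin, S100 or partner genes passed, the 1 being S100a9 without WT library 1. The members' median log2 fold change lay between 0.12 and 0.14 under the other settings, and between 0.05 (without PYK2 KO library 4) and 0.18 with a library left out. Of 144 values for the 9 tested members, 140 kept their direction and side of the threshold, 2 were stronger and 2 reversed, and of 272 values for the 17 named genes tested other than Ptk2b 257, 5 and 10. With a library left out, the reversed genes ran from -0.12 to 0.012 for Anxa2, -0.0077 to 0.054 for Anxa5, -0.076 to 0.14 for Anxa6, -0.062 to 0.10 for S100a1 and -0.076 to 0.35 for S100a8. Anxa6 was at -1.7e-05 with the residual component. Ptk2b stayed between -3.19 and -3.11. For each of these the cause was not tested. Intervals of the abundant members reached about 0.2 on the log2 scale to either side, which limits the size of difference these 6 libraries can show.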
